A study of Mus musculus with 10 samples.

Results

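HA-tagged SETb on chromatin was compared between mouse embryonic stem cells that lacked endogenous SET (addback) and cells that kept it (overexpression). The comparison took 4 of the 10 samples of the series by their genotype labels, 2 replicates in each of 2 groups, and their peaks merged into 14111 regions, against 48575 regions when the lists of all 8 analysed libraries were merged. The addback group was the line KH2 SET-KO pBS31-HA-SETb, and the overexpression group the line KH2 pBS31-HA-SETb with SET wild type. Both lines carried the doxycycline-inducible HA-SETb transgene, received 1 µg/ml doxycycline for 24 h and grew on mouse embryonic fibroblasts that were depleted before harvest. Proteins were linked to each other with 2 mM DSG for 45 min before 1% formaldehyde, and chromatin was precipitated with 3 µg of an HA antibody. Since addback and overexpression each come from a separate line, line and SET background cannot be told apart. Peak names also follow one scheme in the addback lists and another in the overexpression lists, and a difference in when libraries were made cannot be told apart from the background either. The labels do not say that the replicates came from separate cultures, so p-values measure only the spread between these samples, which may be technical. The 2 uninduced SET KO samples were not analysed here, and no value here is set against cells without the transgene. Chromosomes 8 and 11 were not analysed here.

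SET is a histone chaperone: it binds core histones, can shield their tails from acetyltransferases as part of the INHAT complex, and inhibits the phosphatase PP2A. Its isoforms SETa and SETb differ at the N-terminus and share the acidic tail that contacts histones. A chaperone has no DNA motif of its own, so a ChIP-seq peak marks DNA crosslinked to it directly or through histones and other proteins.

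As examples, 5 promoters are shown here so that some of the regions behind the values can be seen. Their sequences were not compared between the 2 backgrounds. The H2ac13 promoter does not stand for the overexpression regions, most of which lay outside genes. The first 4 lay under 4 of the 5 strongest addback IDR regions, which the overexpression libraries did not list. The last lay under a region listed in both overexpression libraries and in no addback library, although addback replicate 2 listed a separate peak with a fold of 2.99 within 1 kb of the same gene, H2ac13. Capitals mark CCGGAAG or its reverse complement CTTCCGG, the core that ETS family transcription factors bind. Each promoter runs 5′ to 3′ on the gene's strand over 300 bases, 250 before and 50 after the start, and comes from RefSeq (GRCm38.p6).
Ddost: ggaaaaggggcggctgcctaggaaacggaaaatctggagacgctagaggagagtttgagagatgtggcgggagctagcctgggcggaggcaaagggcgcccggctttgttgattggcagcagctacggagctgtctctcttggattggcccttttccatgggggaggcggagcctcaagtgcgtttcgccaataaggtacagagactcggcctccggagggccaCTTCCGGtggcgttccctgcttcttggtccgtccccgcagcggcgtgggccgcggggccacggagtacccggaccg
Kctd5: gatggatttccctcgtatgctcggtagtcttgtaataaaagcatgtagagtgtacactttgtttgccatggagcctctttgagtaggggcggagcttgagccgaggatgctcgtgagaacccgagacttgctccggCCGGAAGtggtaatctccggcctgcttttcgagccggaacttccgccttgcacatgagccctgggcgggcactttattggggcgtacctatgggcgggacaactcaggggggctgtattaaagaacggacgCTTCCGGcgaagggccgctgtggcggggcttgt
Mrpl21: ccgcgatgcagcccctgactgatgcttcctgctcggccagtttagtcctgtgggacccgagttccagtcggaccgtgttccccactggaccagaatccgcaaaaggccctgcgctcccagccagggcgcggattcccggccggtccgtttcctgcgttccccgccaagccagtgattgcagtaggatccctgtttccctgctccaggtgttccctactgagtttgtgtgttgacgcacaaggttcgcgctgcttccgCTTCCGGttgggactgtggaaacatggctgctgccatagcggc
Nsfl1c: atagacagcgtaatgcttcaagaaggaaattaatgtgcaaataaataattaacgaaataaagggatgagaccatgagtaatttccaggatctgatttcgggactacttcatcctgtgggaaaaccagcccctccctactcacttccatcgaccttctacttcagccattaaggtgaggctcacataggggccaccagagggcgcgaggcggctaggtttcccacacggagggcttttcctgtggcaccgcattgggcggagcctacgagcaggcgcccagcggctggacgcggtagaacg
H2ac13: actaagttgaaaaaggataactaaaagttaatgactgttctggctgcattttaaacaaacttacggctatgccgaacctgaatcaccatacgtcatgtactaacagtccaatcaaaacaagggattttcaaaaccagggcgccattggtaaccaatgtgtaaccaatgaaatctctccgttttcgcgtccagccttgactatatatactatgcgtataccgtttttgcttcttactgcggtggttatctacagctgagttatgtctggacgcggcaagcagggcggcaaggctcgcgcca
These promoters span chr4:138304488-138304787 (plus strand) for Ddost, chr17:24073436-24073735 (minus strand) for Kctd5, chr19:3282792-3283091 (plus strand) for Mrpl21, chr2:151493932-151494231 (plus strand) for Nsfl1c and chr13:21716162-21716461 (plus strand) for H2ac13. Ddost and Mrpl21 held 1 copy of the motif and Kctd5 held 2, whereas Nsfl1c held none and H2ac13 held 0. The promoters held 24 CpG dinucleotides in Ddost, 21 in Kctd5, 21 in Mrpl21, 16 in Nsfl1c and 15 in H2ac13.

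The addback libraries listed 2518 and 9768 peaks and the overexpression libraries 1343 and 2869. The groups overlapped, and the difference of 1.34 on the log2 scale was within the spread of the replicates (exact permutation test, two-sided, p = 0.667). With 2 libraries against 2 the smallest p that this test can give is 0.333, so no difference here could pass 0.05. Peaks with a q of at most 0.05 numbered 1194 and 2423 in addback against 142 and 365 in overexpression, and these groups did not overlap (log2 difference 2.90, p = 0.333 by exact permutation, its lower limit here). At a −log10 q of at least 5, called strong peaks below, the libraries held 518 and 498 against 27 and 62 (12.4-fold, p = 0.333 by exact permutation, its lower limit here). The highest fold enrichment, the authors' ratio of a peak's signal to its local background, was 29.9 and 28.7 in addback and 13.4 and 14.3 in overexpression. Median peak widths lay between 250 and 291 bp in all 4 libraries. The lists carry no read totals, so the depth behind each value is unknown. A fold of 3 to 3.5 came with a median −log10 p of 5.05 and 4.94 in addback and 4.76 in both overexpression libraries.

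The strongest peaks in addback cells mostly sat at gene ends, and those in overexpression cells mostly outside genes. Among the strongest 1343 peaks of each library, the size of the smallest list, protein-coding gene ends, counted when the summit lay within 1 kb, took 62.1% and 57.0% in addback and 4.10% and 8.56% in overexpression. The means were 59.6% ± 3.58 and 6.33% ± 3.16 (SD, n = 2 each), and the difference of 53.2 percentage points was many times either SD (p = 0.333 by exact permutation, its lower limit here). With noncoding genes included the shares were 67.7% and 64.2% against 7.97% and 13.1%, a difference of 55.4 points (p = 0.333 by exact permutation, its lower limit here). Over all peaks of a library coding gene ends held 54.6% and 33.3% in addback, so most of the 9768 peaks of replicate 2 lay elsewhere, and 4.10% and 10.8% in overexpression. Among the strongest 1343, summits outside all genes made up 13.3% and 14.7% in addback and 62.5% and 57.2% in overexpression. Coding gene bodies away from the ends held 16.2% and 18.5% against 23.4% and 22.5%, the smaller part of the shift. The median distance from a summit to the nearest gene end was 301 and 367 bp in addback and 22127 and 17307 bp in overexpression.

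**Figure D1:**
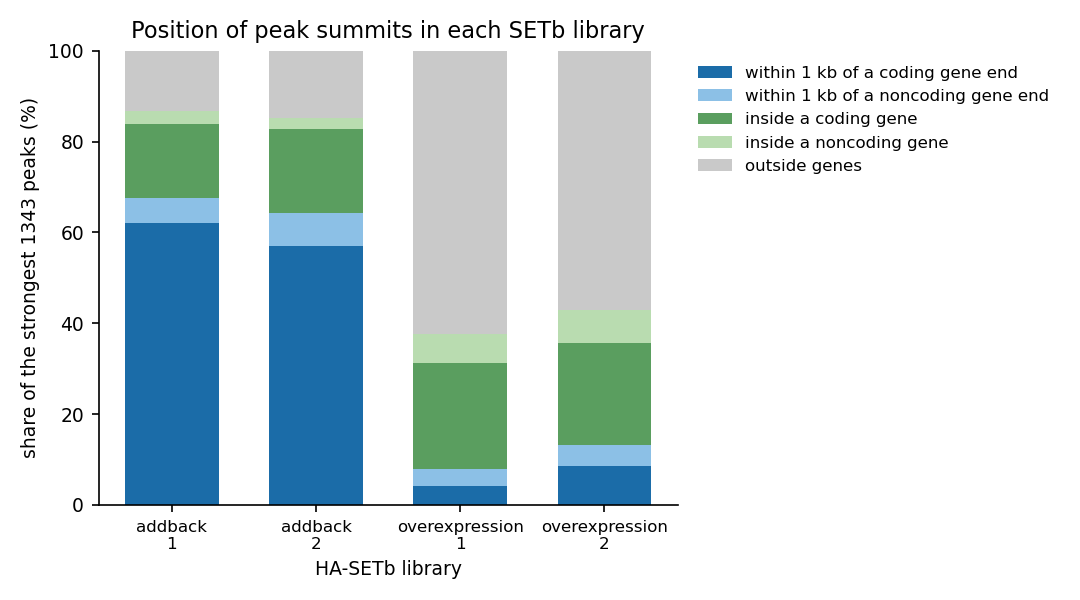
Position of peak summits (stacked bars, share of the strongest 1343 peaks in %) in each of the 4 SETb libraries, 1 bar per library. Coding gene ends fill 62.1% and 57.0% of the addback bars and 4.10% and 8.56% of the overexpression bars, where positions outside genes fill 62.5% and 57.2%.

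The difference was widest among the strongest peaks. Of the first 100 peaks by −log10 p, 93 and 91 lay at coding gene ends in addback, against 1 and 3 in overexpression. Over ranks 1001 to 1343 the addback shares were 53.9% (Wilson 95% interval 48.6% to 59.1%) and 39.9% (34.9% to 45.2%). At these ranks the overexpression shares were 2.92% (1.59% to 5.28%) and 12.5% (9.44% to 16.5%). Both addback shares were thus lower over these ranks than at the top, and both overexpression shares lay below them in each of the 5 bins up to rank 1343. Weaker peaks were not binned. Of strong peaks, 404 of 518 and 385 of 498 lay at coding gene ends in addback, against 0 of 27 and 2 of 62 in overexpression. Where an overexpression library did list a peak at a coding gene end, an addback SETb library listed one there for 9 of 55 peaks in replicate 1 and 53 of 309 in replicate 2 (16.4% and 17.2%). The median fold of these gene-end peaks was 2.73 and 2.81, against 3.36 and 3.08 for the gene-end peaks of the addback libraries.

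**Figure D2:**
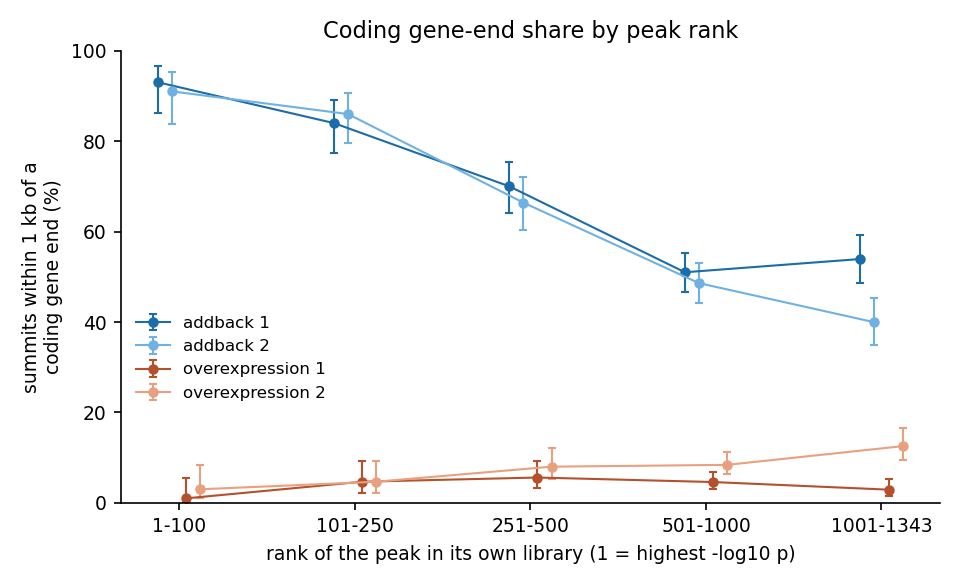
Share of summits within 1 kb of a coding gene end (y axis, %) against the rank of the peak in its own library (x axis, bins by −log10 p) for the 4 SETb libraries, with Wilson 95% intervals that cover counting error only. The addback libraries start at 93.0% and 91.0%, and the overexpression libraries stay at or under 12.5% in every bin.

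Replicates shared peaks and backgrounds hardly did. The strongest 1343 peaks of the addback replicates overlapped by 49.3% and those of the overexpression replicates by 41.8%, whereas the 4 pairs of libraries from different backgrounds overlapped by 2.08% to 3.61%. The mean within a background exceeded the mean between backgrounds by 42.6 percentage points (exact permutation test over the 3 ways to pair the libraries, p = 0.333, the smallest possible). Of strong addback peaks, 97.9% of replicate 1 and 95.4% of replicate 2 were listed in the other addback library at any strength. Only 28 of 518 and 27 of 498 of them (5.41% and 5.42%) were listed in either overexpression library. In the reverse direction 8 of 27 and 15 of 62 strong overexpression peaks (29.6% and 24.2%) were listed in an addback library, and 92.6% and 88.7% in the other overexpression library.

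The merged regions were then sorted by the libraries that listed them. Regions in both addback libraries and in no overexpression library, called addback only, numbered 1116, or 7.91% of the 14111. Regions in both overexpression libraries and no addback library, called overexpression only, numbered 720 (5.10%), and 30 regions (0.213%) were in all 4. A further 9661 regions were in 1 addback library alone, 2379 in 1 overexpression library alone, and 205 were mixed. Being called in a class depends on the authors' threshold in each library, so a region missing from a list may still carry SETb below it.

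Addback-only regions mostly lay at the starts of protein-coding genes. Coding gene ends took 782 of the 1116 (70.1%, Wilson 95% interval 67.3% to 72.7%), and of the 636 whose gene has a strand in the promoter table, 624 (98.1%) lay at the 5′ end. At those ends the summit had a median position 9 bp after the start, with quartiles at −74 and 127 bp. Each of 166 regions (14.9%) lay within 1 kb of ends of at least 2 coding genes, against 3 of the 720 overexpression-only regions. Coding gene bodies held 142 (12.7%), noncoding gene ends 66, of which 43 were lncRNA genes and 4 tRNA genes, and 113 (10.1%) lay outside genes. The fold of a region agreed in rank between the addback replicates (Spearman 0.837 across 1116 regions, which share 1 cell line), against 0.513 across the 720 overexpression-only regions. Regions are no replicates, and these values are a description.

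The deposited IDR lists, which keep peaks that both replicates of a group rank alike, held 485 addback regions and 101 overexpression regions. Of the addback IDR regions 387 (79.8%) lay at coding gene ends, 317 at 5′ ends and 6 at 3′ ends where the strand was known. Of the 485, 459 (94.6%, Wilson 95% interval 92.3% to 96.3%) were in no overexpression library. Ddost, a subunit of the oligosaccharyltransferase that glycosylates proteins in the endoplasmic reticulum, led the list. Its region (chr4:138304417-138305137) had a −log10 p of 166 and 145 and a fold of 29.9 and 28.7 in addback replicates 1 and 2, with the summit 24 bp from the gene's end, and no overexpression library listed it. Kctd5, an adaptor of cullin-3 ubiquitin ligases, followed with a fold of 22.3 and 22.2 on a region (chr17:24073172-24073860) that is also within 1 kb of an end of Pdpk1. The region of Mrpl21, a protein of the large mitochondrial ribosomal subunit (chr19:3282589-3283373), had a fold of 25.6 and 25.5 and is shared with Ighmbp2. These are the promoters printed above that carry the ETS motif.

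The next strongest addback regions also lay at or near gene ends and spanned 665 to 949 bp. Dcaf10, a substrate receptor of the CUL4-DDB1 ligase, had a fold of 29.3 and 25.2, with the summit 1072 bp inside the gene by its outermost end but 53 bp before a start in the promoter table. Nsfl1c, a cofactor of the p97 ATPase, had a fold of 24.4 and 20.4, and Rab33b, a small GTPase of the Golgi, one of 25.6 and 20.4. Mrpl44, also of the large mitochondrial ribosomal subunit, had 16.5 and 16.6, and Ndufs7, a core subunit of respiratory complex I, had 15.5 and 14.9. Rad54l2, a helicase-like protein, had 16.8 and 15.6, Cpsf1, which takes part in cleavage and polyadenylation of mRNA, 18.2 and 17.7, and Dpy19l4 13.4 and 13.5. For Rad54l2, Cpsf1 and Dpy19l4 the promoter table gave no strand, so which end of the gene carried the region is not known. The region between Card6 and Rpl37, a cytoplasmic ribosomal protein, had 19.1 and 19.8. None of these 12 regions was listed in an overexpression library.

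Many promoters under addback-only regions held the ETS core. CCGGAAG, searched on both strands of the 300-base windows, was in 392 of 891 such promoters (44.0%, Wilson 95% interval 40.8% to 47.3%), in 249 of 500 promoters under addback IDR regions (49.8%) and in 2536 of all 29089 promoters (8.72%). The promoters under addback-only regions also held more CpG dinucleotides, with a median of 23 against 7 in all promoters, and more G and C, 62.0% against 52.7%. Among promoters with at least 18 CpG, the lower quartile of the addback-only set, the motif was in 317 of 670 under an addback-only region (47.3%) and in 1322 of 7782 others (17.0%). With fewer CpG the shares were 75 of 221 (33.9%) and 822 of 20416 (4.03%). Part of the difference from all promoters thus went with CpG content, and within either CpG range the addback-only promoters still held the motif more often.

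The motif also went with the strength of the region. Regions over a promoter with the motif had a median fold of 6.33 and 5.58 in the addback replicates (n = 305), and those without it 4.24 and 4.12 (n = 362). With these regions in 4 equal parts by mean fold, the motif was present at 35.3% in the weakest part, then at 37.7% and 50.6%, and at 59.3% in the strongest. The nearest copy lay a median of 60 bp from the summit (quartiles 28 and 121 bp), and 201 of the 305 lay within 100 bp. Other motifs were searched on both strands in the same way. The NRF1 palindrome was in 2.58% of promoters under addback-only regions and 0.994% of all, and the YY1 motif in 1.80% and 0.591%. The SBS motif was in 9 of 891 promoters under addback-only regions and 77 of all 29089, and a CG-rich palindrome in 16 (1.80%) and 134 (0.461%), so these rare motifs were more frequent there as well. SP (GGGGCGGGG) was in 15.0% and 11.3% and CRE (TGACGTCA) in 2.92% and 1.72%, but under addback IDR regions SP was in 10.2% and CRE in 5 of 500, both below the share in all promoters. The E-box CACGTG was in 7.86% and 7.02%. CCAAT went the other way, at 27.7% against 37.3%, as did the TATA motif TATAAA at 5.05% against 13.8%. Overexpression-only and shared regions covered 7 and 6 promoters of the table, too few to compare. CCGGAAG was in those of Ddx47 and Gm35240 among the 7 and in that of Gm3448 among the 6.

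**Figure D3:**
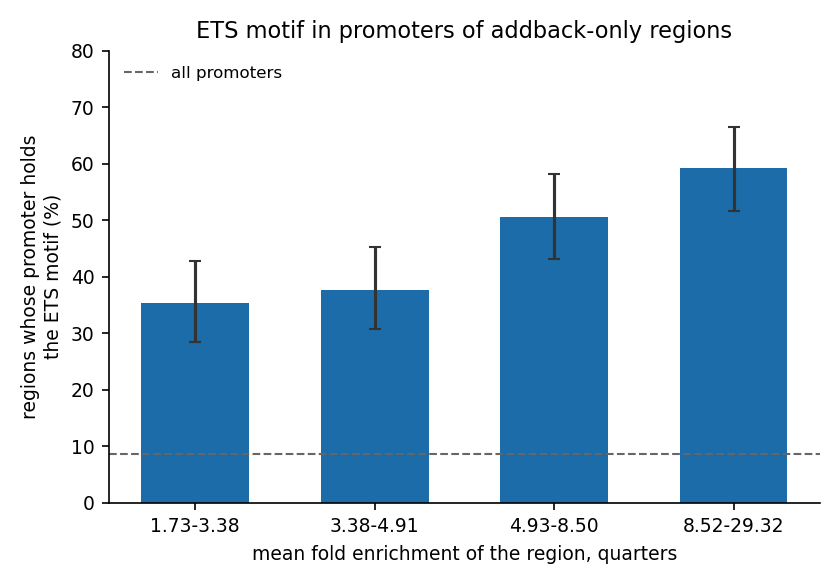
Share of addback-only regions over a promoter that holds CCGGAAG (bars, %, Wilson 95% intervals for counting error) in 4 equal parts of the regions by mean fold enrichment in the 2 addback libraries (x axis). The bars go from 35.3% to 59.3%, and the dashed line is the share in all 29089 promoters, 8.72%.

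Overexpression-only regions were of another kind. Of the 720, 474 (65.8%, Wilson 95% interval 62.3% to 69.2%) lay outside genes, 164 (22.8%) inside coding genes and 18 at coding gene ends, with a median distance to a gene end of 25357 bp. They were weaker than the addback-only regions in their own libraries, with a median fold of 2.80 and 2.98 against 3.89 and 3.80. The IDR list of this group placed 77 of 101 regions (76.2%) outside genes and 4 at coding gene ends, and 80 of the 101 (79.2%) were in no addback library. Chromosome X held 108 of the 720 (15.0%), against 33 of the 1116 addback-only regions (2.96%) and 5.51% of all merged regions. Of the 108, 29 lay in a single stretch of X described below. Over the strongest 1343 peaks, X and Y together held 17.2% and 14.1% in overexpression and 8.04% and 5.36% in addback, groups that did not overlap (difference −8.94 percentage points, p = 0.333 by exact permutation, its lower limit here).

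The strongest overexpression regions stood in a few intergenic segments. Regions at the start of chromosome 10 (chr10:3111239-3115410 and chr10:3115968-3117249), outside genes and nearest to the pseudogene Gm3318, led the list. The first had a fold of 13.4 and 14.3 in the overexpression replicates and the second 12.6 and 13.5, and neither addback library listed a peak between 3.1 and 3.13 Mb. On chromosome X from 126.65 to 126.85 Mb, outside genes and nearest to 4932411N23Rik and the pseudogene Gm7746, the overexpression libraries listed 32 and 33 peaks covering 24.2 and 24.4 kb, and the addback libraries none. This stretch held 29 of the 720 overexpression-only regions and 17 of the 101 IDR regions of that group. Neither segment was particular to SETb. On chromosome 10 the mean fold was 14.6 and 14.3 in SETa overexpression, against 12.8 and 13.4 in SETb overexpression. In the X stretch it was 5.75 and 8.40, against 4.22 and 4.54. The SETa addback libraries listed 2 and 1 peaks in the X stretch and none in that of chromosome 10. A further region of the first 12 lay 21348 bp from an end of Nkain2, with a fold of 5.46 and 5.56. The other 3 of the 12 lay on the ends of X and Y near Erdr1 and Gm33272, described with the shared regions.

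Single genes in the overexpression IDR list were few. Inside coding genes and away from their ends it held regions in, among others, Thsd7a, Pcdh7, Tmem267, Rarb, Dpp10, Gm7982, Dennd1b and Mid1. Rarb, a retinoic acid receptor, had a region (chr14:17025631-17025962) with a −log10 p of 7.63. Its fold was 4.04 and 4.63 in overexpression replicates 1 and 2, and no addback library listed it. These genes were named after the list was seen. At coding gene ends the list held regions at Spocd1, LOC100504180, Fcgr3 and Gm46977 with Etv6.

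Runs of at least 5 overexpression-only regions with gaps of at most 50 kb numbered 8 and held 69 of the 720 (9.58%); these runs were chosen after their values were seen. A run of 6 spanned 5.2 kb beside Cdkn1a, the cell cycle inhibitor p21, toward Rab44 (chr17:29102907-29108110), with 6 and 7 peaks in the overexpression libraries and none in either addback SETb library. Its highest fold was 3.37 and 3.58. A run of 7 over 70.9 kb held Cdkn1b, which encodes the inhibitor p27, with Crebl2, Gpr19 and the lncRNA Lockd (chr6:134859475-134930406), and there the addback libraries listed 3 peaks each against 9 and 13. Another run of 6 lay in the Dux repeat array with Duxf3 (chr10:58223024-58239495), where 9 and 12 overexpression peaks faced 0 and 2 addback peaks. A run of 5 lay among snoRNA genes inside Snhg14, the host of the imprinted Prader-Willi snoRNA array (chr7:59736796-59771826), with 6 and 5 peaks against none. The maximum fold in each of these 4 runs was below 4, under that of the 12 addback regions named above, while the median over all addback-only regions was itself 3.89 and 3.80.

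**Figure D4:**
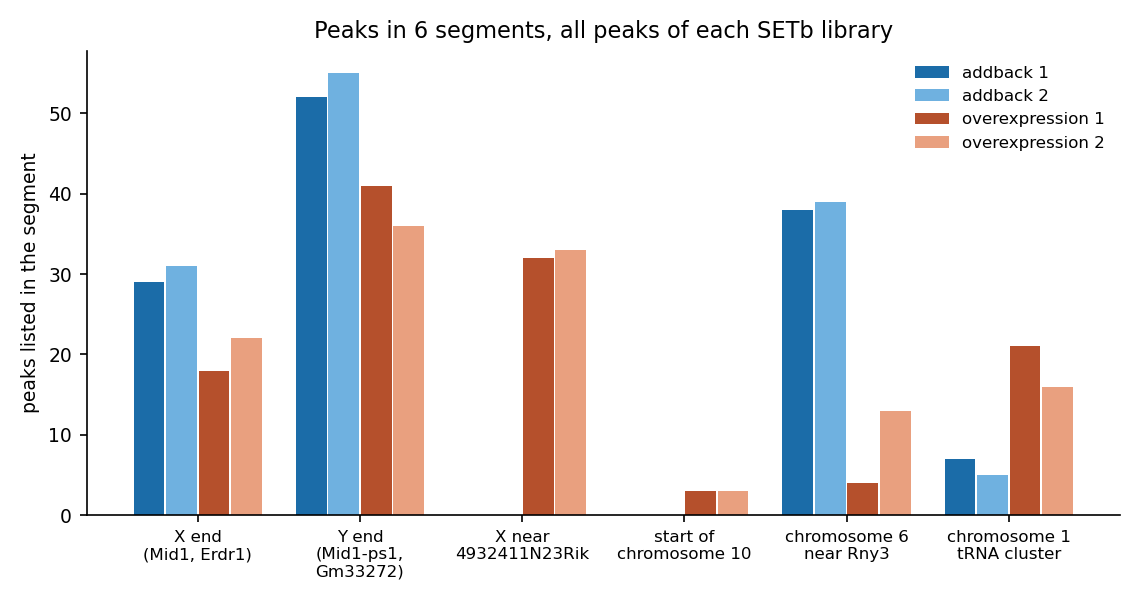
Number of peaks (y axis, all peaks of a library) in 6 segments for the 4 SETb libraries. The segments at the ends of X and Y hold peaks in all 4 libraries, those on X near 4932411N23Rik and at the start of chromosome 10 only in overexpression, and the one on chromosome 6 near Rny3 mostly in addback.

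Runs of addback-only regions numbered 4 and held 39 of the 1116. The longest, of 16 regions, lay on Y (chrY:90718342-90826456), in the segment that also held shared and overexpression-only regions. On chromosome 6 from 47.6 to 47.8 Mb, around the Y RNA gene Rny3 and the lncRNA gene Gm52861, the addback libraries listed 38 and 39 peaks and the overexpression libraries 4 and 13. The covered length was 21.5 and 21.9 kb against 0.996 and 3.83 kb, with a mean fold of 2.17 and 2.31 against 1.73 and 1.76. A run of 6 on chromosome 7 (chr7:4995776-5062531) held the zinc finger genes Zfp579, Zfp580 and Zfp865 and the splicing factor U2af2, with a highest fold of 15.9 and 13.6 and no overexpression peak.

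Regions carrying SETb in both backgrounds were few and mostly lay on the sex chromosomes. Of the 30 regions, 12 were on Y and 7 on X (63.3% together, Wilson 95% interval 45.5% to 78.1%), and they were wide, with a median of 1788 bp against 545.5 for addback-only and 415 bp for overexpression-only regions. The X regions lay at the end of that chromosome around Mid1, a ubiquitin ligase gene that crosses into the pseudoautosomal region, and Erdr1. The Y regions lay around Mid1-ps1, Gm52481 and Gm33272. X and Y share sequence at these ends, so reads from one and the other cannot be told apart there. The X segment held 29 and 31 addback peaks and 18 and 22 overexpression peaks, covering 19.7 and 16.6 kb against 24.1 and 30.4 kb. The Y segment held 12 shared regions beside 16 addback-only and 10 overexpression-only regions, so all 3 classes occurred there. It held 52 and 55 against 41 and 36 peaks, covering 33.5 and 31.2 kb against 34.9 and 41.0 kb. The mean fold over the X segment was 2.59 and 2.42 in overexpression and under 2 in both addback libraries.

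The IDR lists shared still less. Of the 485 addback and 101 overexpression IDR regions, 7 of each overlapped (1.44% and 6.93%), 5 on Y and 2 on X, and none lay at a coding gene end. On X both lay before Erdr1 (chrX:170001034-170001882 and chrX:170008419-170010108 in the addback list), with an addback −log10 p of 16.4 and 9.67 and an overexpression −log10 p of 6.18 and 6.98. On Y they lay by Gm33272, Gm52481 and Mid1-ps1, with an addback −log10 p from 7.38 to 18.4 and an overexpression −log10 p from 5.52 to 9.89. Outside X and Y the region with the strongest addback signal in all 4 libraries lay between Vps51, a subunit of the GARP tethering complex, and Tmem262 (chr19:6076912-6077645). Its fold was 10.1 and 6.80 in addback and 2.72 and 3.06 in overexpression, so the values did not overlap. At the low-affinity IgG receptor gene Fcgr3 (chr1:171063706-171067431) the fold was 3.06 and 2.45 in addback and 3.69 and 4.51 in overexpression. At the promoter shared by Gm46977 and Etv6, an ETS family repressor (chr6:134034333-134036297), it was 2.61 and 3.18 against 3.95 and 3.79. Fcgr3 lies beside a tRNA cluster on chromosome 1 from 171.05 to 171.1 Mb that held 7 and 5 addback peaks and 21 and 16 overexpression peaks.

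Counted by gene, coding genes with a peak in both replicates of a group were mostly addback genes. Among 19235 protein-coding genes, 1068 (5.55%) had a peak within 1 kb of a gene end in both addback libraries and in no overexpression library. By library, 8.41% and 18.4% of coding genes had a peak in addback and 0.338% and 1.85% in overexpression. In the other direction 20 genes (0.104%) had one in both overexpression libraries alone, and 8 (0.0416%) in all 4. These 8 were Cdkn1b, Etv6, Fcgr3, Gm3435, Gm3448, Gm46977, Tmem262 and Vps51. An addback IDR region lay at the ends of 504 genes (2.62%), and an overexpression IDR region at those of 5 (0.026%). With only the strongest 1343 peaks of each library the counts were 632, 17 and 2. Each list below is read against 5.55% and 0.104%, with no test of the list, and the members named are those with the highest −log10 p in the addback IDR list, up to 4 a list, unless a class is given in full. Neighbours that share a region are each counted, as are Rps18 with Vps52, Ndufs3 with Kbtbd4 and Snrpd3 with Gucd1 for the addback IDR list.

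Genes of protein synthesis carried addback-only SETb more often than coding genes as a whole. Translation initiation and elongation factors had 14 of 50 members (28.0%), mitochondrial ribosomal proteins 15 of 65 (23.1%) and cytoplasmic ribosomal proteins 15 of 77 (19.5%), and no member of the 3 lists was overexpression only. Mitochondrial ribosomal proteins also had 14 members with an addback IDR region (21.5% against 2.62%), led by Mrpl21 and Mrpl44 and then Mrpl39, with a fold of 24.2 and 17.2. Mrpl39 is not among the addback-only genes, because overexpression replicate 2 listed a peak there with a fold of 2.72. Mrpl1 had a fold of 12.1 and 13.6. Cytoplasmic ribosomal proteins were led by Rpl37, Rpl29 (12.0 and 11.5), Rps7 (11.8 and 10.3) and Rps18 (14.0 and 10.4). Among the factors, Eif1ad had a fold of 10.9 and 9.49, Eef1b2, an exchange factor for the elongation factor eEF1A, 15.3 and 11.3, Eif4e2, a cap-binding protein, 12.1 and 11.8, and Eif2s3x, a subunit of eIF2, 12.8 and 13.1. The Eef1b2 region is the same as that of Ndufs1. Of 32 aminoacyl-tRNA synthetases 5 were addback only (15.6%), among them Wars (9.03 and 6.70) and Dars (8.49 and 4.70), while Tars2 had an IDR region with a fold of 17.5 and 15.2 and no overexpression peak, of which only the replicate 2 peak lay within 1 kb of the gene's end.

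Other housekeeping groups followed. RNA polymerase subunits, Mediator and general transcription factors had 16 of 91 members in the addback-only class (17.6%), with a fold of 16.3 and 17.1 at the Mediator subunit Med23, 14.1 and 12.1 at the RNA polymerase III subunit Polr3b, 10.8 and 10.4 at Gtf2h2 of TFIIH and 13.4 and 10.7 at Gtf3c3 of TFIIIC. Respiratory chain and ATP synthase genes, assembly factors included, had 12 of 98 (12.2%), with Ndufs7, Ndufs1 (15.3 and 11.3), Ndufs3 (11.4 and 11.8) and Ndufb3 (12.6 and 9.46), all of complex I, at the top. Spliceosome and splicing factors had 8 of 74 (10.8%), with Sf3a3 at 12.8 and 8.89, Snrnp200 at 7.17 and 6.12 and Prpf6 at 7.31 and 6.09. Snrpd3 was stronger, at 15.5 and 12.6, and was left out of the class by an overexpression replicate 2 peak with a fold of 3.15. Proteasome subunits had 3 of 31 (9.68%), which were Psmc2 (7.92 and 5.39), Psmd2 (7.92 and 6.55) and Psmc1 (7.07 and 5.18).

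Chromatin and DNA repair genes gave mixed shares. Chromatin modifiers and remodellers had 14 of 86 members (16.3%), and 22 with gene ends taken within 2.5 kb, where 6.6% of coding genes were addback only. Of the list 4 had an IDR region (4.65% against 2.62%), which were the deacetylase Hdac8 (13.7 and 9.44), the H3K4 demethylase Kdm5a (7.57 and 5.71), Ino80b (5.29 and 7.76) and Smarcd1 of the BAF complex (4.74 and 4.53). DNA replication and repair genes had 7 of 85 (8.24%), led by Rad54l2, Xrcc5, which encodes Ku80 (6.93 and 7.30), Ercc6l (5.88 and 4.88) and Xrcc4 (5.34 and 4.83). Histone chaperones with Set had 3 of 25 (12.0%), which were Hira, the H3.3 chaperone (8.32 and 7.71), Ssrp1 of the FACT complex (6.84 and 6.83) and Ptma. The Hira region is the same as that of Mrpl40, which is counted with the mitochondrial ribosomal proteins. Zfp zinc finger genes had 34 of 351 (9.69%), led by Zfp646 and Zfp668, which share a promoter region (15.9 and 17.2), then Zfp579 and Zfp11 (12.0 and 9.48).

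By library, developmental and pluripotency genes lay near the background in addback replicate 1 and above it in replicate 2. Of 148 developmental transcription factors and Wnt ligands, 3 were addback only (2.03% against 5.55%), which were Hoxd13, Sox2 and Tead4, and none had an IDR region. Addback replicate 1 listed 10 of them (6.76% against 8.41% of coding genes) and replicate 2 listed 44 (29.7% against 18.4%), so the share was below the background in one and above it in the other. Overexpression listed 0 and 2 (0% and 1.35% against 0.338% and 1.85%). The pluripotency network had 3 of 34 addback-only members (8.82%), Gbx2, Sox2 and Trim28, also without an IDR region. Of this list 4 (11.8% against 8.41%) and 12 (35.3% against 18.4%) were listed in addback. In overexpression 1 and 2 were listed (2.94% and 5.88% against 0.338% and 1.85%). Apart from addback replicate 2 these shares rest on very few genes. Olfactory and vomeronasal receptor genes, which are silent in stem cells, had 1 of 1375 in the addback-only class, and ampliconic and testis families of X and Y 0 of 115.

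**Figure D5:**
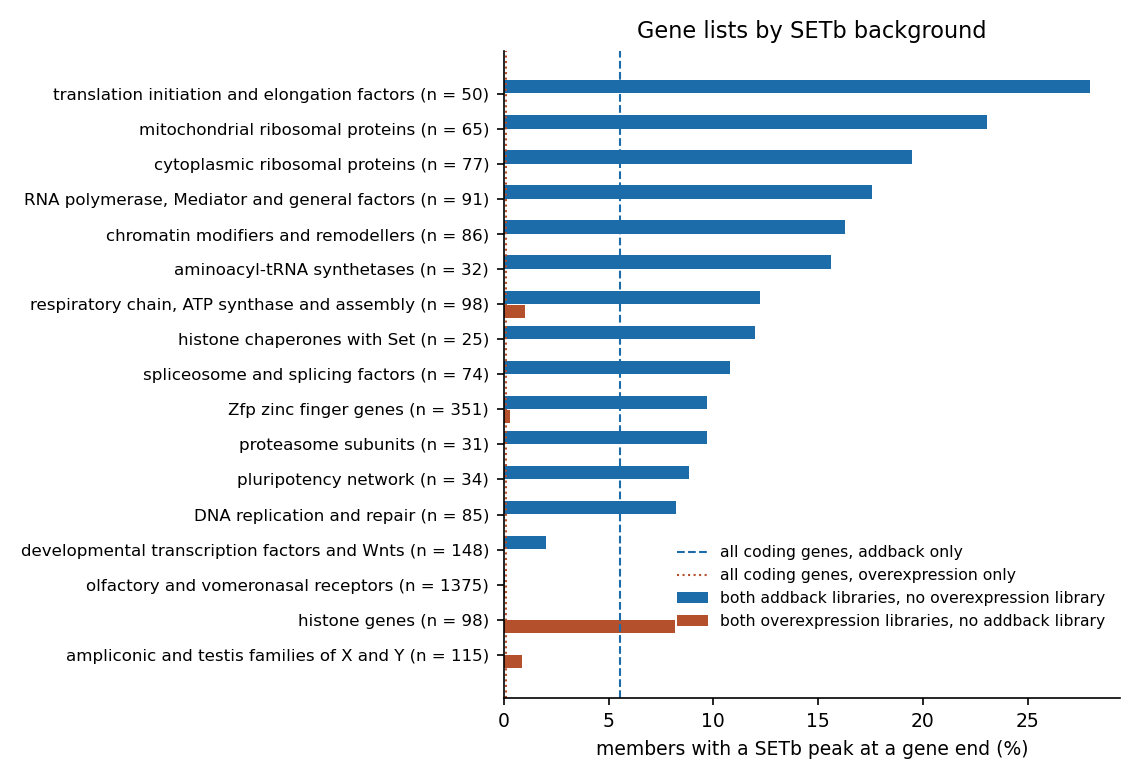
Share of list members (x axis, %) with a SETb peak within 1 kb of a gene end in both addback libraries alone (blue) or both overexpression libraries alone (red), for 17 gene lists (y axis, number of members in brackets). Dashed and dotted lines give the shares over 19235 coding genes, 5.55% and 0.104%; the red bar exceeds the blue one for histone genes (8.16%) and, with 1 gene, for the ampliconic families of X and Y.

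Histone genes were the list with the most overexpression-only members. Of 98 histone genes, 8 (8.16% against 0.104%) were overexpression only and none was addback only, and these 8 are of the 20 coding genes in that class. They were H2ac12, H2ac23, H2bc12, H2bc14, H2bc23, H3c10, H3c7 and H4bc24, replication-dependent core histone genes of the clusters on chromosome 13, and neighbours share peaks, so that 6 regions lay behind the 8 genes. At H3c10 the fold was 3.11 and 3.67, at H2bc14 3.07 and 3.49, and at H3c7 2.85 and 3.05 in overexpression replicates 1 and 2, while the addback libraries listed no peak. All 8 had a −log10 p between 3.01 and 6.07, none a strong peak or an IDR region. Counted by library, 15 and 18 histone genes had a peak in overexpression (15.3% and 18.4% against 0.338% and 1.85% of coding genes) and 3 and 13 in addback (3.06% and 13.3% against 8.41% and 18.4%). Over all 98 genes the share was thus above the background in both overexpression libraries and below it in both addback libraries, while among the 55 on chromosome 13 addback replicate 2 listed 11, which is 20% against 18.4%. With the strongest 1343 peaks these counts were 15 and 12 against 2 and 3, while the coding-gene shares by library given above are for all peaks. Again 8 histone genes were overexpression only, of 17 coding genes in that class at this setting (0.0884% of coding genes). Of these 8, 6 were the same (H2ac12 and H2bc12 were replaced by H2ac13 and H2bc13). The cluster from 21.72 to 22.04 Mb held 7 of the 8, with 7 and 8 overexpression peaks against 0 and 13 addback peaks. Addback replicate 2 thus had peaks in the same cluster, such as those at H3c11 and H2ac22, where overexpression replicate 1 also listed one. The second cluster on chromosome 13, from 23.53 to 23.93 Mb, held the other gene, H3c7, with 1 and 5 overexpression peaks against 2 and 5 addback peaks and 1 addback-only region. The highest SETb fold at a histone gene was an addback value, 6.19 and 3.83 at H3c6, where overexpression replicate 2 had 3.06 and replicate 1 no peak. The core histone genes are near-identical copies, and the counting can split or pool their reads, so single genes are uncertain. In the SETa libraries 52 and 53 of the 98 genes had a peak in addback (53.1% and 54.1% against 34.3% and 31.8% of coding genes) and 0 and 3 in overexpression (0% and 3.06% against 0.983% and 1.9%).

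The other 12 overexpression-only genes were Atp5b, Ddx47, Gm13278, Gm13288, Gm14139, Gm3752, Gm52446, LOC100504180, Spin2d, Spocd1, Vmn1r48 and Zfp981. Spocd1, a nuclear protein of piRNA-directed DNA methylation in the male germline, had a fold of 3.53 and 4.36, Ddx47, an RNA helicase of ribosome biogenesis, 3.56 and 3.48, and Atp5b, the catalytic subunit of ATP synthase, 2.98 and 2.72. Ddx47, Cdkn1b, Etv6 and Gm46977 lie in a segment of distal chromosome 6 that held 69.4% and 62.2% of the peaks of the SETa overexpression libraries and 3.65% and 4.36% of those of SETb overexpression.

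The SETa libraries, which the classes did not use, split the same way. Both SETa addback libraries listed 872 of the 1116 addback-only regions (78.1%, Wilson 95% interval 75.6% to 80.5%) and 53 of the 720 overexpression-only regions (7.36%). Both SETa overexpression libraries listed 21 (1.88%) and 295 (41.0%) of them. Outside that chromosome 6 segment the last share was 40.1% of 696 regions. Of the 30 shared regions 28 were in both SETa addback libraries and 18 in both SETa overexpression libraries. Of the IDR regions, 481 of 485 addback regions were in both SETa addback libraries, and 80 of 101 overexpression regions in both SETa overexpression libraries. The SETa lists are longer, which raises their share of any region set. The contrast in the SETa libraries gave a difference of 54.9 percentage points in the gene-end share, against 55.4 for SETb, and −4.36 in the X and Y share, against −8.94. Whether the isoforms differ in these contrasts was not tested.

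Loci of the experiment itself and tRNA genes were also looked up. No SETb library listed a peak at Set, and 1 listed a peak at Gt(ROSA)26Sor, which was addback replicate 1 at rank 1682. The lists show peaks and cannot show whether Set was deleted. Of 349 tRNA genes, 38 and 80 had a peak in addback (10.9% and 22.9%, against 8.41% and 18.4% of coding genes). In overexpression 18 and 37 had one (5.16% and 10.6%, against 0.338% and 1.85%), further above the share of coding genes than in addback.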

How the data were processed

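The deposited files were narrow peak lists of HA ChIP-seq, 1 list for each of 8 libraries and 1 IDR list for each of 4 groups. Per the submitters' processing notes the tools were Bowtie2, MACS2 and deepTools and the build GRCm38 (mm10); versions are not given in the sources used here. Each list gives, as the authors deposited it, a fold enrichment (a ratio to local background), a −log10 p and a −log10 q per peak, and a score, which was used in the IDR lists as the scaled IDR. These are the authors' own values and rank or filter peaks within a list; the number of reads behind them is unknown.

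From these lists, peaks were ranked by −log10 p, and the strongest 1343 of each library were compared. Peaks of the 4 SETb libraries that overlapped by at least 1 bp were merged into regions, and a region's class followed from the libraries that listed it. Each summit was placed against 49943 genes of RefSeq (GRCm38.p6), as within 1 kb of a gene end, inside a gene or outside. Strand and start came from the RefSeq promoter table, which matched 15496 of 19235 coding genes (80.6%) by gene identifier. Promoters of chromosomes 8, 11 and 18 were not used here, so shares of all promoters are over the other chromosomes. Groups were compared over libraries by a two-sided exact permutation test of 2 against 2 over 6 arrangements. Wilson 95% intervals cover counting error only. The code ran in Python 3.11.15 with numpy 2.4.6, pandas 2.3.3 and scipy 1.17.1 and was tested on simulated data.

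The genes named are the 12 IDR regions of each background alone with the highest −log10 p, every IDR region found in both, up to 4 members of each gene list with an IDR region, Set and Gt(ROSA)26Sor. Other genes, runs and segments were named after their values were seen. The members and the gene lists were chosen with earlier results of these data known. Lists were matched by symbol, and genes caught by a shared symbol prefix but of another function were taken out, and 1 missed member put in, after the counts had been seen. Alternatives were a −log10 q of at least 5, all peaks, the strongest 500, no X and Y, summits within 250 bp, an IDR of at most 0.01, other overlaps, gene ends within 2.5 kb, each replicate left out and replicate blocks.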

Additional observations from a re-analysis of the deposited data

How the results depend on the processing

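Of 112 alternatives 85 kept the direction of a tested difference or stayed within 1.5 times a count, and 27 moved. None of the 44 alternatives of the tested differences changed direction. Direction was the only criterion for these 44, so their sizes could still differ widely. The design cannot pass 0.05, so p-values say nothing about stability. Leaving out 1 replicate gave a difference in peak number of 0.36 to 2.32 (log2), in the gene-end share of 52.8 to 58.0, in the X and Y share of −10.5 to −7.37 and in overlap of 38.3 to 46.6 percentage points. Over the other settings the gene-end difference was smallest with all peaks and reached 73.0 with the strongest 500, and the X and Y difference reached −46.3 with strong peaks only.

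Counts of regions depended on the lists. With strong peaks only, 419 regions were addback only, 18 overexpression only and 1 both. With the strongest 1343 peaks of each library, an alternative chosen after seeing the data, 630 were addback only and 19 both, and 632 genes were addback only and 2 both. Without X and Y, 11 regions were both, and with summits within 250 bp, 18. Leaving out 1 replicate gave 1119 to 9536 addback-only regions (9536 without addback replicate 1, 2395 without addback replicate 2), 729 to 2635 overexpression-only regions (2635 without overexpression replicate 1, 1239 without overexpression replicate 2) and 30 to 66 in both (66 without addback replicate 1, 61 without overexpression replicate 1), since a class then needs fewer libraries. For the IDR lists, an IDR of at most 0.01 left 53 overexpression-only and 4 shared regions, and leaving out X and Y left 57 and 0. Shared IDR regions numbered 1 with an overlap of at least 50% and 13 with peaks widened by 1 kb. With gene ends within 2.5 kb, 6 of 22 list counts moved, chromatin modifiers from 14 to 22.

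With the replicate block the differences were 1.34, 55.4, −8.94 and 42.7 (exact permutation test, p = 0.5 each, the smallest possible). Same-numbered libraries of the 2 backgrounds overlapped by 3.05% and differently numbered ones by 2.85%. Overlap between backgrounds was low in every pair, so these values cannot show whether same-numbered samples share more than a number.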
